A study of Mus musculus with 40 samples.

Results

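Bulk RNA-sequencing of fetal liver stem and progenitor cells was used to compare 4 *Kat6aE/E;Kat6bE/E* libraries, homozygous for *Kat6a* G656E and *Kat6b* G577E, with 4 *Kat6bE/E* libraries, which are wild type (WT) for *Kat6a* and homozygous for *Kat6b* G577E. The cells were sorted as LSK (lineage-negative, SCA-1-positive, c-KIT-positive) from E14.5 fetuses, and the members were chosen by these genotype labels alone. The 8 libraries are part of 16 LSK libraries, the others being 4 WT and 4 *Kat6aE/E* libraries, and of 40 libraries in the series. Both alleles were made with Cas9 in C57BL/6J zygotes and are carried by every cell of the fetus, so a change in LSK cells need not arise in them. The *Kat6bE/E* mutation is present on both sides of the comparison, which asks what homozygosity for *Kat6a* G656E adds when the acetyltransferase domain of KAT6B is already mutated. The *Kat6bE/E* fetuses came from litters 970, 1026 (replicates 2 and 3) and 1027. The *Kat6aE/E;Kat6bE/E* fetuses came from litters 970 (replicate 1) and 1045 (replicates 2 to 4), so that only litter 970 holds both genotypes.

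KAT6A and KAT6B are paralogous histone acetyltransferases of the MYST family that act in complexes with BRPF, ING5 and MEAF6 subunits and acetylate histone H3. KAT6A is required for hematopoietic stem cells, which in the fetal liver lie within the LSK gate together with multipotent progenitors, and it is known as a partner in fusion proteins of acute myeloid leukemia. Both mutations replace a conserved glycine of the acetyl-CoA binding site with glutamic acid. The reference coding sequence around each altered codon is shown because it defines the alleles compared. The glycine codon is in capitals, and both are read on the plus strand of GRCm39.
*Kat6a*, chr8:23416438-23416482, with the codon of G656E in exon 13 of 18: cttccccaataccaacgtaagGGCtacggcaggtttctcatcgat
*Kat6b*, chr14:21687660-21687704, with the codon of G577E in exon 12 of 17: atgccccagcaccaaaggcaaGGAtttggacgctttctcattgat
*Kat6a* (chr8:23349545-23433275) was measured at 186, 174, 128 and 181 CPM (counts relative to library size, scaled by the TMM method) in *Kat6bE/E* replicates 1 to 4 and at 198, 172, 184 and 176 CPM in *Kat6aE/E;Kat6bE/E* replicates 1 to 4. *Kat6b* (chr14:21531502-21722546) was measured at 34.7, 28.4, 23.1 and 38.0 CPM in *Kat6bE/E* and at 40.0, 24.9, 40.8 and 28.5 CPM in *Kat6aE/E;Kat6bE/E*. The genotypes overlapped for both genes (limma, log2 fold change 0.17, SE 0.12, FDR=0.408 for *Kat6a* and 0.21, SE 0.12, FDR=0.337 for *Kat6b*). The point mutations leave the transcripts whole, so the counts do not check the genotype labels.

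The 3 *Kat6aE/E;Kat6bE/E* libraries of litter 1045 stood apart from the other 5 libraries. At an equal depth of 12270376 counts, 16080, 16136, 15810 and 16265 genes had at least 1 count in *Kat6bE/E*, 16336 in *Kat6aE/E;Kat6bE/E* replicate 1, and 12574, 13555 and 13403 in replicates 2 to 4. Replicate 1 was thus above every *Kat6bE/E* library and the others below all of them. The mean difference of -2106 genes did not pass an exact permutation test (two-sided p=0.143, 70 assignments). Without replicate 1 it was -2895, which is given with no test because the other 3 libraries are littermates already known to hold few genes. Of the genes tested, 820 to 1363 were at 0 counts in the litter 1045 libraries, 16 in replicate 1 and 12 to 49 in *Kat6bE/E*. Total counts were 12270376 to 26857333 in *Kat6aE/E;Kat6bE/E* and 15649709 to 25312065 in *Kat6bE/E*. Mitochondrially encoded genes took 2.98% to 4.26% of the counts in litter 1045, 2.14% in replicate 1 and 1.41% to 2.06% in *Kat6bE/E*. In litter 1045, genotype, litter and few detected genes cannot be told apart. *Xist*, expressed from the inactive X chromosome of females, was at 926 and 993 CPM in *Kat6aE/E;Kat6bE/E* replicates 2 and 4 and at 1620 CPM in *Kat6bE/E* replicate 1, against at most 2.39 CPM in the others. The litter 970 pair therefore also differs in sex. Of the genes that define the gate, *Kit* was at 351 to 529 CPM, and *Ly6a*, which encodes SCA-1, at 0.94 to 4.45 CPM in the 8 libraries.

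**Figure D1:**
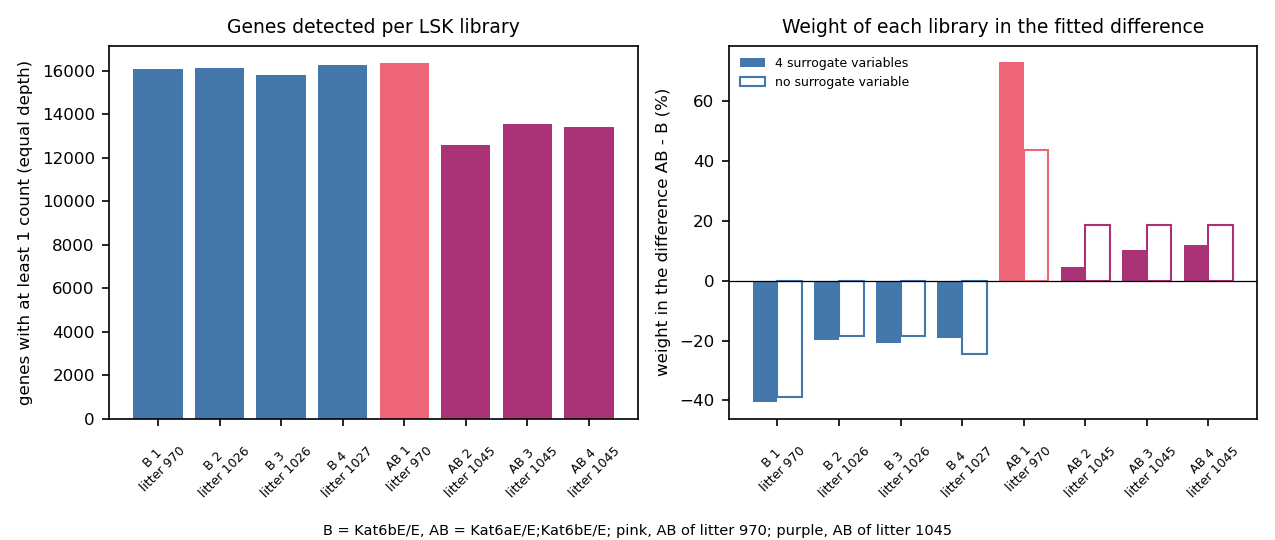
Genes with at least 1 count at equal depth (left) and the weight of each library in the fitted difference, in percent (right), for the 4 *Kat6bE/E* (B) and 4 *Kat6aE/E;Kat6bE/E* (AB) libraries; filled bars, 4 surrogate variables; open bars, no surrogate variable. The 3 AB libraries of litter 1045 lie between 12574 and 13555 genes, and AB replicate 1 carries 73.0% of the weight of its genotype.

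Surrogate variables are estimated patterns of unknown variability that the study's model removes. With the 4 used here, the model fitted the 4 *Kat6aE/E;Kat6bE/E* libraries almost exactly (leverage 0.958 to 0.995 of a possible 1, against 0.218 to 0.309 in *Kat6bE/E*), so their own spread entered the error of the fit little. In the fitted difference, *Kat6aE/E;Kat6bE/E* replicate 1 had 73.0% of the weight of its genotype and replicates 2 to 4 had 4.64%, 10.5% and 11.9%. Without surrogate variables, replicate 1 had 43.9% and each of the others 18.7%. The fold changes and FDR values below hence rest mainly on replicate 1. For many of the genes the level per library or its range is given, so that the litter 1045 libraries can be read as well.

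Of 13071 genes tested, 193 (1.48%) were called, that is, had an FDR<0.05. Of these, 72 (0.551%) were higher and 121 (0.926%) lower in *Kat6aE/E;Kat6bE/E*. The genes that rose include receptors, oxidase subunits, lysozyme and surface molecules of myeloid cells, and those that fell include the mast cell gene *Cpa3*, the megakaryocyte genes *Itga2b* and *Rab27b*, and the nucleolar gene *Nolc1*. Changes were moderate, and the median size of the log2 fold change was 0.66 for higher and 0.54 for lower genes. Called higher genes had a median of 21.9 CPM in *Kat6bE/E* and called lower genes of 98.8 CPM. A count that uses no model was taken of genes for which all 4 *Kat6aE/E;Kat6bE/E* libraries lay above, or all below, the 4 *Kat6bE/E* libraries. It gave 650 of the 13071 genes (4.97%), 292 higher (2.23%) and 358 lower (2.74%), and among the called genes 27 of 72 higher and 24 of 121 lower. Within litter 970, all 193 called genes differed in their fitted direction, where 82.2% of all genes did, as that pair is much of the fit. In the litter 1045 libraries, 59 of the 72 higher and 81 of the 121 lower genes lay on the same side of the *Kat6bE/E* mean, where 61.2% of all genes did. Without the 3 libraries of litter 1045, 617 genes were called, 170 of them the same genes in the same direction. Without litter 970 and without surrogate variables, 6 were called, all higher and 3 of them shared (*Lyz2*, *Cybb* and *Sema4a*, besides *Chi3l1*, *Stfa3* and *Lcn2*), and with surrogate variables 3092, of which 108 were shared. Without surrogate variables the model of all libraries called 0 genes with limma, where 933 had an unadjusted p below 0.05, 12 with edgeR and 253 with DESeq2. With them 2721 genes (20.8%) had such a p.

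Myeloid cytokine and chemokine receptors were the list with most calls among those of immune genes. These receptors let progenitors and phagocytes respond to growth factors and migrate. Of 27 members tested, 6 rose and 0 fell, with a median log2 fold change of 0.36 against -0.04 for all genes. *Csf2rb* (chr15:78209952-78238047), the beta chain shared by the receptors for GM-CSF, IL-3 and IL-5, was at 77.5, 76.2, 78.6 and 80.7 CPM in *Kat6bE/E* and at 121, 153, 107 and 92.3 CPM in *Kat6aE/E;Kat6bE/E*. All 4 mutant libraries lay above the narrow *Kat6bE/E* range (log2 fold change 0.57, SE 0.08, FDR=0.0154). *Csf2rb2* (chr15:78166707-78189921), the IL-3-specific beta chain of the mouse, was at 10.8, 9.11, 10.8 and 13.6 CPM in *Kat6bE/E* and at 19.0, 21.5, 23.4 and 22.3 CPM in *Kat6aE/E;Kat6bE/E* (log2 fold change 0.88, SE 0.16, FDR=0.0206). The genotypes again did not overlap. Both genes are close paralogs that lie side by side, and how the counting split reads between them was not resolved. *Ccr2*, the receptor for the monocyte attractant CCL2, was at 25.2, 17.9, 22.7 and 20.7 CPM in *Kat6bE/E* and at 37.7, 28.1, 47.9 and 34.6 CPM in *Kat6aE/E;Kat6bE/E* (log2 fold change 0.75, FDR=0.0253), without overlap. For *Il12rb1*, an IL-12 and IL-23 receptor chain, *Cxcr4*, the receptor for the retention signal CXCL12, and *Il6ra*, the IL-6 receptor, the fitted log2 fold changes were 1.34, 0.53 and 0.53. These 3 were highest in *Kat6aE/E;Kat6bE/E* replicate 1, at 10.3, 90.6 and 66.5 CPM, and the litter 1045 libraries overlapped *Kat6bE/E*. The M-CSF receptor *Csf1r* did not pass (116 to 137 CPM in *Kat6aE/E;Kat6bE/E* and 93.5 to 111 CPM in *Kat6bE/E*, FDR=0.0560). Without the litter 1045 libraries, which leaves replicate 1 alone on the mutant side, the median of the 27 receptors was 0.44. Without litter 970 and surrogate variables 0 of them were called, with a median of 0.08.

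Subunits of the phagocyte NADPH oxidase, which makes superoxide to kill microbes, were higher. Of 6 members, 2 rose and the median log2 fold change was 0.38. *Cybb* (chrX:9301491-9354010), the catalytic subunit gp91phox, was at 20.9, 21.8, 20.5 and 25.8 CPM in *Kat6bE/E* and at 35.3, 69.7, 65.4 and 55.1 CPM in *Kat6aE/E;Kat6bE/E* (log2 fold change 0.84, SE 0.15, FDR=0.0206). It was higher in all 4 mutant libraries and most in those of litter 1045. *Ncf1*, the organizing subunit p47phox, was at 129, 124, 138 and 140 CPM in *Kat6bE/E* and at 197, 150, 177 and 153 CPM in *Kat6aE/E;Kat6bE/E* (log2 fold change 0.48, SE 0.08, FDR=0.0177), also without overlap. *Ncf4*, which encodes p40phox, did not pass (FDR=0.0577), but its libraries did not overlap either, at 36.8 to 47.1 CPM in *Kat6bE/E* and 48.1 to 73.4 CPM in *Kat6aE/E;Kat6bE/E*. *Cybb* was the only oxidase gene also called without litter 970 and surrogate variables.

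*Lyz2* and *Itgam*, both of phagocytes, rose. *Lyz2* (chr10:117111557-117118346), lysozyme of myeloid cells, was at 103, 118, 119 and 130 CPM in *Kat6bE/E* and at 146, 511, 308 and 340 CPM in *Kat6aE/E;Kat6bE/E* (log2 fold change 0.66, SE 0.10, FDR=0.0177). No mutant library overlapped *Kat6bE/E*, and the difference was largest in litter 1045. *Lyz2* has a close paralog, and shared reads were not resolved. *Itgam*, the CD11b chain of the complement receptor, which is not among the antigens used for lineage exclusion, was at 45.5, 35.6, 35.2 and 47.2 CPM in *Kat6bE/E* and at 63.0, 114, 67.0 and 68.6 CPM in *Kat6aE/E;Kat6bE/E* (log2 fold change 0.64, FDR=0.0206). Its partner chain *Itgb2*, named after its values were seen, rose with a log2 fold change of 0.39 (FDR=0.0438), and its libraries overlapped, at 55.4 to 71.1 CPM in *Kat6bE/E* and 66.3 to 99 CPM in *Kat6aE/E;Kat6bE/E*. Among 29 granule and lysosome genes *Lyz2* was the only one called, and the median was 0.18.

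Of 19 myeloid transcription factors tested, 2 rose and 0 fell, with a median of 0.14. *Id2*, an inhibitor of basic helix-loop-helix factors, was at 14.2 to 22.1 CPM in *Kat6bE/E* and at 32.7, 50.7, 31.1 and 32.9 CPM in *Kat6aE/E;Kat6bE/E* (log2 fold change 1.03, SE 0.16, FDR=0.0177), with all mutant libraries higher. *Irf5*, an interferon regulatory factor downstream of Toll-like receptors, was at 22.9 to 30.4 CPM in *Kat6bE/E* and at 46.4, 40.8, 33.7 and 27.1 CPM in *Kat6aE/E;Kat6bE/E* (log2 fold change 0.59, FDR=0.0268), where replicate 4 overlapped. Of 33 innate sensing genes, 3 rose and 0 fell, with a median of 0.23. *Pld4*, an endosomal nuclease that degrades ligands of nucleic acid sensors, was at 31.6, 32.1, 35.1 and 33.9 CPM in *Kat6bE/E* and at 52.7, 46.7, 39.9 and 37.5 CPM in *Kat6aE/E;Kat6bE/E* (log2 fold change 0.57, FDR=0.0238), without overlap. *Nlrc4*, an inflammasome sensor, and *Gsdmd*, the pore-forming gasdermin D, had fitted changes of 0.92 and 0.53. Both were highest in replicate 1, at 12.5 and 53 CPM. In replicates 2 to 4 *Nlrc4* was at 6.80, 8.69 and 5.97 CPM, against 5.02 to 6.42 CPM in *Kat6bE/E*. *Gsdmd* was at 34.7, 30.1 and 40.9 CPM, against 31.4 to 37.2 CPM. Of 40 interferon-induced, 15 class II and dendritic cell and 20 JAK-STAT feedback genes tested, 0 were called by limma, and 8, 1 and 4 had an unadjusted p below 0.05.

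**Figure D2:**
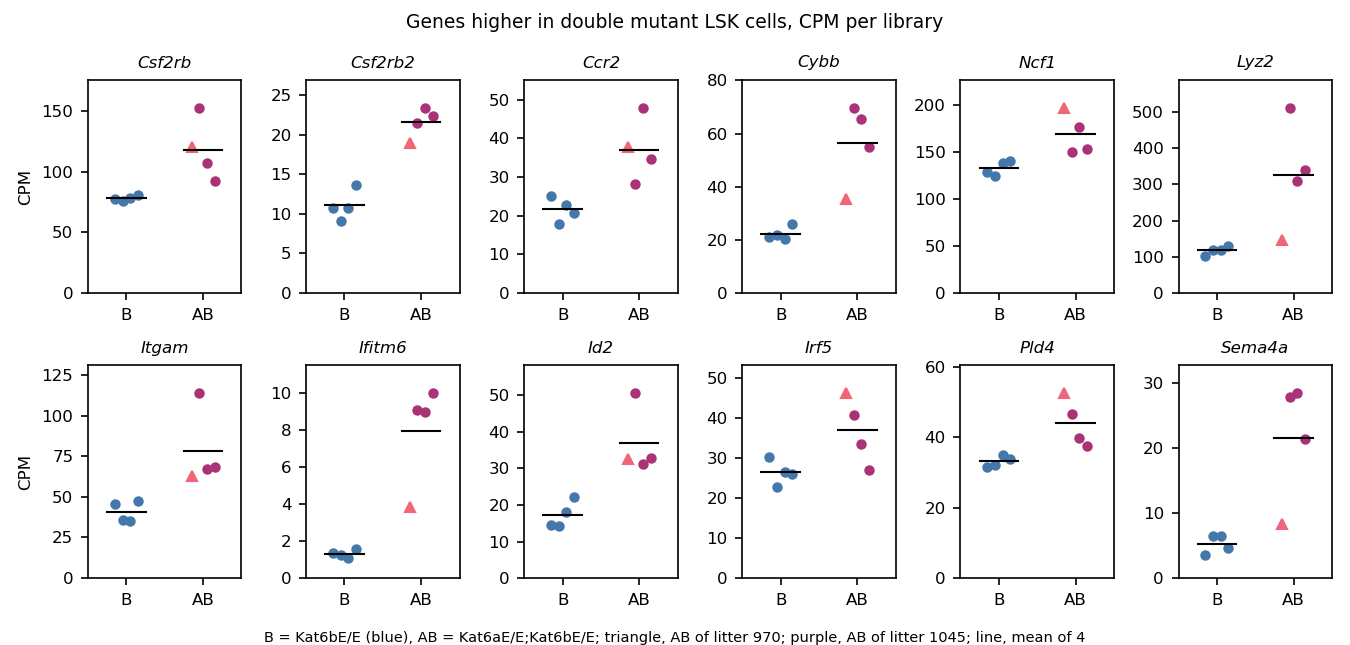
CPM of 12 genes called higher, in each *Kat6bE/E* (B, blue) and *Kat6aE/E;Kat6bE/E* (AB) library; triangle, AB of litter 970; purple, AB of litter 1045; line, mean of 4. All AB libraries lie above B except for *Irf5* replicate 4, and *Lyz2*, *Cybb*, *Ifitm6* and *Sema4a* are highest in litter 1045.

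The other higher genes with the smallest p were of mixed function. *Ifitm6*, of the interferon-induced transmembrane family, was at 1.08 to 1.55 CPM in *Kat6bE/E* and at 3.83, 9.07, 8.95 and 10 CPM in *Kat6aE/E;Kat6bE/E* (log2 fold change 1.79, FDR=0.0206). *Krt80*, a keratin, was at 2.92 to 4.91 CPM and at 12.8, 14.2, 6.82 and 5.63 CPM (log2 fold change 1.63, FDR=0.0154), and *Padi3*, a peptidylarginine deiminase, at 1.62 to 2.78 CPM and at 5.23, 5.23, 9.89 and 10.1 CPM (1.67, FDR=0.0206). *Pi16*, a peptidase inhibitor, was at 6.41 to 7.69 CPM and at 12.7, 19.7, 13.8 and 9.04 CPM (0.92, FDR=0.0206). None of these overlapped. *Pdyn*, which encodes the opioid precursor prodynorphin, was at 0 to 0.23 CPM in *Kat6bE/E* and at 1.40, 2.08, 4.26 and 2.79 CPM in *Kat6aE/E;Kat6bE/E* (FDR=0.0206), so that it was near the limit of detection in one genotype. *Dglucy*, a D-glutamate cyclase, and *Cd84*, a SLAM family receptor, rose by 1.11 and 0.76 in the fit, with overlap of litter 1045 and *Kat6bE/E*.

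Promoters were examined for sequences bound by hematopoietic factors, among them PU.1, the factor that drives myeloid receptor genes. RefSeq windows of 300 bases (GRCm38.p6, 250 before and 50 after the start, the first listed for a gene) were found for 55 of the 72 higher, 96 of the 121 lower and 10546 of the 13071 tested genes. The PU.1 sequence GAGGAAGT occurred on either strand in 7 of 55 (12.7%) higher, 3 of 96 (3.12%) lower and 336 of 10546 (3.19%) tested genes. Promoters of higher genes held a median of 6 CpG, those of lower genes 23 and all 20. For the other sequences the shares for higher, lower and all tested genes were 7.27%, 5.21% and 6.86% for AGATAA, read by GATA factors, 12.7%, 15.6% and 12.8% for RUNX (TGTGGT), 9.09%, 10.4% and 6.96% for STAT (TTCNNNGAA), 12.7%, 14.6% and 14.7% for the E-box CAGCTG, and 10.9%, 9.38% and 7.23% for TATAAA, the core of the TATA box. They were 9.09%, 5.21% and 7.44% for the C/EBP sequence TTGCNNNAA, 0, 0 and 0.256% for its palindrome TTGCGCAA, 0, 0 and 3.15% for the cyclic AMP response sequence TGACGTCA, and 3.64%, 1.04% and 3.07% for the interferon response sequence. All were searched on both strands, and no test was made. The 7 windows of higher genes with the PU.1 sequence are shown, on the strand of the gene, with the match in capitals (GAGGAAGT or its reverse complement).
*Apobr*, chr7:126584914-126584943: agtcaggggaaGAGGAAGTgtcttgggtgc
*Arhgap27*, chr11:103363661-103363690: agtggccggtgACTTCCTCcgacaaggatg
*Csf2rb2*, chr15:78305676-78305705: gggcactggcaACTTCCTCaatctgctctc
*Cyth4*, chr15:78597062-78597091: ggccagggctgACTTCCTCccacagggtct
*Pld4*, chr12:112760653-112760682: ctcagaacaaaGAGGAAGTgaatggaaggg
*Ptgs1*, chr2:36230391-36230420: aggctggagcaGAGGAAGTtggcggtcagc
*S100a4*, chr3:90603776-90603805: ctctattcagcACTTCCTCtctcttggtct
In *Apobr*, an apolipoprotein B receptor, the match starts 83 bases and in *Ptgs1*, the cyclooxygenase COX-1, 24 bases before the annotated start, while in the other 5 genes it lies 10 to 35 bases after it. A match is a description of the letters and does not show binding.

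Markers of mature neutrophils were higher in the litter 1045 libraries than in the others. The antigens of the lineage exclusion include Gr1, which would remove mature neutrophils from the gate. The summed level of 14 listed neutrophil genes, of which 13 were tested, was 461 to 753 CPM in *Kat6bE/E* (461 CPM in replicate 1, of litter 970), 724 CPM in *Kat6aE/E;Kat6bE/E* replicate 1, its littermate, and 1780 to 2800 CPM in replicates 2 to 4. None of these genes was at 0 in all 8 libraries. *Itgam* was the only one called, all 13 tested had a positive fitted change, and the median of the list was 0.88 in the fit, 0.85 without litter 1045 and 2.56 without litter 970 and surrogate variables. Further neutrophil genes were named after their values were seen. The granule protein *Ngp* was at 9.75 to 30.5 CPM in *Kat6bE/E*, 22.7 CPM in replicate 1 and 155 to 272 CPM in litter 1045 (FDR=0.256), and *Lcn2*, the siderophore-binding lipocalin, at 4.02 to 13.6, 12.1 and 68.5 to 79.9 CPM (FDR=0.111). *Chi3l1*, a chitinase-like protein, was at 0.77 to 1.0, 1.13 and 11.9 to 18.8 CPM (FDR=0.102). In replicate 1, *Ngp*, *Lcn2*, *S100a8*, *S100a9* and *Stfa3* were within the *Kat6bE/E* range and *Chi3l1* just above it. Also above it there were *Mmp8* (1.73 against 0.33 to 1.09 CPM), *Cd177* (2.10 against 0.23 to 1.36 CPM) and *Ltf* (26.1 against 9.52 to 23.4 CPM). In *Kat6aE/E* against WT, limma called *Chi3l1* (1.46, FDR=0.0216) and *Cd177* (1.87, FDR=0.0453) higher. Neither of these genotypes holds a litter 1045 library, but the surrogate variables were estimated from all 16 libraries. Without surrogate variables limma called 3 genes in *Kat6aE/E* against WT, 0 of them higher. Of the 13 tested list genes 0 were called in *Kat6aE/E* against WT with 4 surrogate variables, with a median of 0.53. The part of neutrophil transcripts in the higher level of the receptor, oxidase and lysozyme genes was not tested. In such bulk samples more cells of a type and more RNA per cell cannot be told apart. Of 20 macrophage and monocyte genes 1 was called (*Ccr2*), with a median of -0.23 and a summed level of 381 to 621 CPM in *Kat6bE/E*, 453 CPM in replicate 1 and 611 to 676 CPM in litter 1045.

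Of the mast cell and megakaryocyte lists, 1 and 2 genes fell. *Cpa3* (chr3:20269774-20296362), the mast cell carboxypeptidase that is also expressed in early progenitors, was at 37.7, 31.0, 35.8 and 28.1 CPM in *Kat6bE/E* and at 16.2, 15.1, 25.7 and 19.0 CPM in *Kat6aE/E;Kat6bE/E* (log2 fold change -1.0, SE 0.16, FDR=0.0195), lower in all 4 libraries. Of 12 mast cell and basophil genes it was the only one called (median -0.30, and 0.04 without litter 1045). *Gata2*, a factor of stem and mast cells, did not pass (FDR=0.0541), though its libraries did not overlap, at 90.7 to 108 CPM in *Kat6bE/E* and 52.6 to 87.4 CPM in *Kat6aE/E;Kat6bE/E*. Of 21 megakaryocyte and platelet genes, 2 fell and 0 rose, with a median of -0.67. *Itga2b*, which encodes the integrin CD41, was at 61.3, 65.7, 73.9 and 62.9 CPM in *Kat6bE/E* and at 26.7, 64.0, 23.8 and 42.7 CPM in *Kat6aE/E;Kat6bE/E* (log2 fold change -1.21, SE 0.19, FDR=0.0206), where replicate 2 lay within the *Kat6bE/E* range. *Rab27b*, a small GTPase of platelet granule release, was at 8.36 to 14.2 CPM and at 4.91, 7.24, 2.13 and 6.91 CPM (log2 fold change -1.29, FDR=0.0423), without overlap. The median of the megakaryocyte list stayed negative without litter 1045 (-0.69) and without litter 970 and surrogate variables (-0.34).

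Of the erythroid genes, all 25 tested members had a negative fitted change, with a median of -0.75, but 1 was called. That gene, *Car1*, a carbonic anhydrase of red cells, was at 12.3 to 24.7 CPM in *Kat6bE/E*, 5.07 CPM in replicate 1 and 12.5 to 19.6 CPM in litter 1045 (log2 fold change -1.63, FDR=0.0453). The summed erythroid level was 4060 to 9220 CPM in *Kat6bE/E*, 2500 CPM in replicate 1 and 12700 to 19600 CPM in litter 1045. The sum, to which globins contribute much, was below the *Kat6bE/E* range in replicate 1 and above it in the other libraries. Members other than globins need not follow it: *Gata1* and *Klf1*, erythroid factors named after their values were seen, were at 111 to 147 and 246 to 289 CPM in litter 1045, within their *Kat6bE/E* ranges of 91.1 to 167 and 146 to 296 CPM, while the globin gene *Hba-a1* was at 2610 to 4720 CPM against 552 to 1630 CPM. Without litter 970 and surrogate variables the median of the list was 0.38. Of 38 stem cell genes, 2 fell, with a median of 0.06. They were *Gfi1b* (log2 fold change -0.80, FDR=0.0438) and *Tal1* (-0.49, FDR=0.0476), factors of erythroid and megakaryocyte as well as stem cells. *Gfi1b* was at 86.5 to 125 CPM in *Kat6bE/E*, 49.9 CPM in replicate 1 and 87.5 to 126 CPM in litter 1045, and *Tal1* at 224 to 309, 150 and 273 to 297 CPM. Both calls came from replicate 1, and *Tal1* had the opposite sign without litter 970 and surrogate variables (0.09).

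Several lower genes were below *Kat6bE/E* in both litters. *Igf2bp1*, an RNA-binding protein of the fetal program, was at 181, 176, 151 and 171 CPM in *Kat6bE/E* and at 128, 129, 106 and 128 CPM in *Kat6aE/E;Kat6bE/E* (log2 fold change -0.45, SE 0.11, FDR=0.0453). *Peg12*, a paternally expressed imprinted gene, was at 18.8, 13.9, 15.8 and 13.5 CPM and at 7.23, 3.21, 4.26 and 7.57 CPM (-1.30, FDR=0.0206). *Fkbp9*, a prolyl isomerase of the endoplasmic reticulum, was at 25.5 to 28.8 CPM and at 16.2, 18.1, 12 and 19.6 CPM (-0.83, FDR=0.0206). All 3 were below *Kat6bE/E* in every mutant library. *Prtg*, which encodes the cell surface protein protogenin, was at 1.95, 0.80, 0.40 and 1.29 CPM in *Kat6bE/E* and at 0 counts in all 4 *Kat6aE/E;Kat6bE/E* libraries (FDR=0.0195). No fold is given, since 820 to 1363 tested genes were at 0 in litter 1045. *Fgf13*, an intracellular FGF homologous factor, was at 3.61 to 5.97 CPM in *Kat6bE/E* and at 0.59, 1.57, 0 and 4.38 CPM in *Kat6aE/E;Kat6bE/E* (log2 fold change -3.36, FDR=0.0206), with replicate 4 overlapping. Of the other fetal program genes, *Arid3a* rose by 0.30 in the fit (FDR=0.0383), at 271 CPM in replicate 1 but 172 to 198 CPM in litter 1045, within the *Kat6bE/E* range of 172 to 215 CPM.

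**Figure D3:**
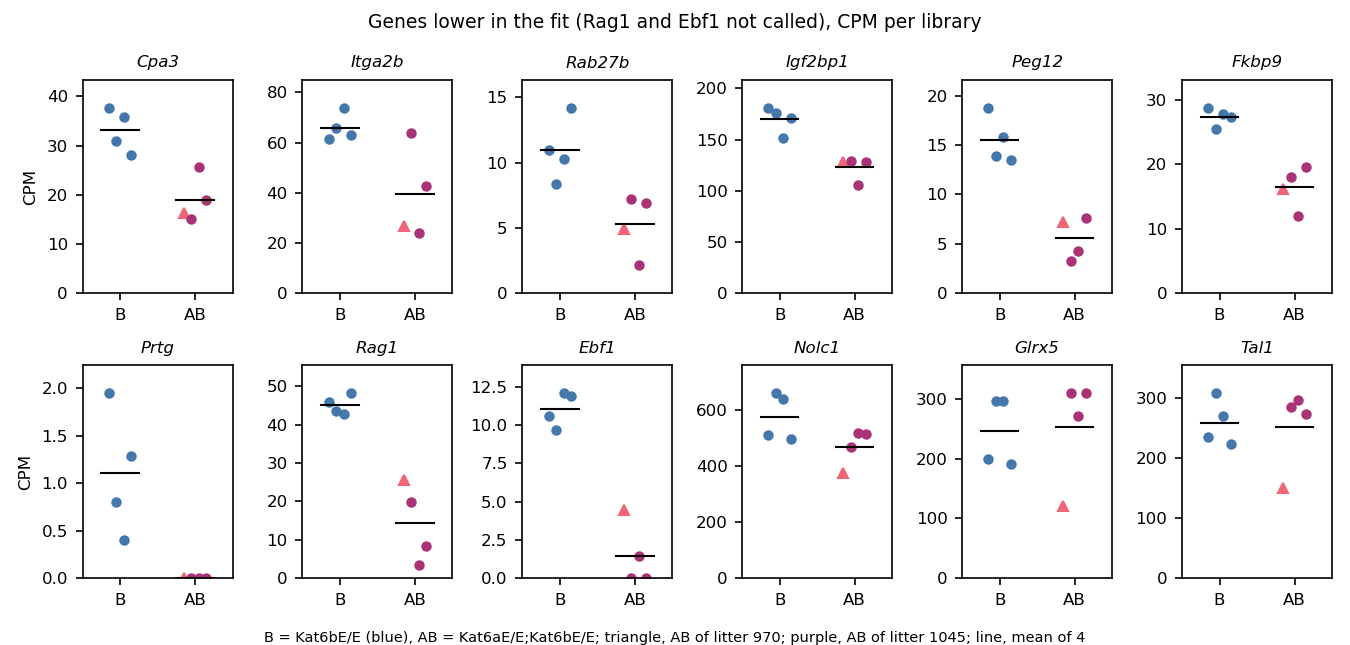
CPM of 12 genes with a negative fitted change, in each *Kat6bE/E* (B, blue) and *Kat6aE/E;Kat6bE/E* (AB) library; triangle, AB of litter 970; purple, AB of litter 1045; line, mean of 4. *Rag1* and *Ebf1* were not called; *Nolc1*, *Glrx5* and *Tal1* are lowest in the AB library of litter 970, at 375, 121 and 150 CPM.

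Some genes of early B cells were low in all 4 *Kat6aE/E;Kat6bE/E* libraries without being called. Of 28 lymphoid progenitor genes tested, 9 lay below *Kat6bE/E* in every mutant library and 0 above (2.74% and 2.23% of all genes), whereas the fit called 1, *Notch1*, as higher. These 9 genes were chosen by this after their values were seen. Of all 28, the fitted change was negative for 17 and positive for 11. *Rag1*, a recombinase subunit, was at 45.9, 43.6, 42.8 and 48.3 CPM in *Kat6bE/E* and at 25.7, 19.8, 3.41 and 8.30 CPM in *Kat6aE/E;Kat6bE/E* (log2 fold change -1.20, FDR=0.0800). *Ebf1*, a factor that commits cells to the B lineage, was at 9.65 to 12.1 CPM and at 4.42, 0, 1.45 and 0 CPM (FDR=0.138). *Pax5*, which maintains B cell identity, was at 19.1 to 26.8 CPM and at 6.96, 3.02, 0 and 0.04 CPM (FDR=0.301). In replicate 1, where genes were detected as in *Kat6bE/E*, all 3 of these genes were also below the *Kat6bE/E* range. The 9 also include *Igll1*, *Vpreb3*, *Cd79a*, *Blnk* and *Lef1* (FDR=0.175 to 0.338). Other members, named after their values were seen, were not low in replicate 1. *Il7r* was at 20.4 CPM there and 4.35 to 8.38 CPM in litter 1045, against 16.3 to 21.9 CPM in *Kat6bE/E*. *Flt3* was at 317 CPM in replicate 1 and 117 to 151 CPM in litter 1045, against 134 to 262 CPM. The list's median was -0.17 in the fit, -0.60 without surrogate variables, -0.08 without litter 1045 and -1.0 without litter 970 and surrogate variables. Without litter 970 but with surrogate variables 16 of 29 tested members were called lower and 0 higher, with a median of -1.34. That fit called 2164 of all 13179 genes lower and 928 higher, from litter 1045 alone on the mutant side. *Notch1* was at 108 to 206 CPM in *Kat6bE/E*, 286 CPM in replicate 1 and 113 to 115 CPM in litter 1045 (log2 fold change 0.49, FDR=0.0460), and its sign turned without replicate 1 (-0.11).

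Further lower genes of smallest p were lowest in replicate 1. *Nolc1*, a nucleolar chaperone of ribosome assembly, was at 510, 661, 640 and 495 CPM in *Kat6bE/E* and at 375, 468, 516 and 514 CPM in *Kat6aE/E;Kat6bE/E* (log2 fold change -0.45, SE 0.07, FDR=0.0195). *Srm*, spermidine synthase, was at 381 to 511 CPM and at 295, 461, 377 and 444 CPM (-0.43, FDR=0.0206), and *Abcf1*, a translation factor, at 355 to 432 CPM and at 276, 376, 379 and 327 CPM (-0.38, FDR=0.0206). *Glrx5*, a mitochondrial glutaredoxin of iron-sulfur cluster assembly, was at 191 to 297 CPM and at 121, 310, 271 and 309 CPM (-0.57, FDR=0.0177). For these genes replicate 1 lay below all *Kat6bE/E* libraries, and at least 1 library of litter 1045 lay within or above their range. The same held for the centromere protein gene *Cenpv* (-1.57), the folate carrier *Slc19a1* (-0.52), the amino acid transporter *Slc1a4* (-0.99), the inositol phosphatase *Minpp1* (-0.62) and the Wnt receptor *Ryk* (-0.96), with FDR=0.0116 to 0.0238. Among 95 cytoplasmic ribosomal protein genes, a list matched by symbol that includes a few kinases of ribosomal protein S6, 1 was called (*Rpl29*, -0.32), with 90 negative and a median of -0.23. Among 93 respiratory chain genes 1 was called (*Atp5if1*, -0.43), with 88 negative and a median of -0.18. Of 25 replication licensing genes, *Rrm2*, of ribonucleotide reductase (-0.33), and *Cdt1*, a loader of the MCM helicase (-0.31), fell and 23 members were negative. Of 27 immediate-early and heat shock genes, *Hspe1*, a mitochondrial chaperonin, fell (-0.41). The mean log2 difference of the litter 1045 libraries from *Kat6bE/E* was -0.15 for *Rpl29* and -0.14 for *Cdt1*. It was 0.01 for *Atp5if1*, 0.07 for *Rrm2* and 0.05 for *Hspe1*. The medians of the ribosomal protein and respiratory lists were -0.13 and -0.02 without litter 970 and surrogate variables.

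Other lists held few or no calls in the fit of all 16 libraries. Of 24 mitosis, 18 CDK inhibitor and p53 target, 30 hypoxia and glycolysis, 23 cholesterol synthesis, 14 MYST and KAT6 complex and 57 replication-dependent histone genes tested, 0 passed by limma, and 6, 2, 10, 3, 1 and 5 had an unadjusted p below 0.05. Of 12 *Hox* genes 0 passed by limma and 1 had such a p, with *Hoxb4* at 2.14 to 3.87 CPM in *Kat6bE/E* and at 5.39, 8.63, 7.67 and 4.42 CPM in *Kat6aE/E;Kat6bE/E* (FDR=0.0947). *Ptprc*, the common leukocyte antigen CD45, was the only call among 10 genes of the LSK phenotype (0.44, FDR=0.0444), at 115 to 194 CPM in *Kat6bE/E*, 263 CPM in replicate 1 and 119 to 164 CPM in litter 1045. It was also the only one of 6 tested lineage antigens, through its isoform B220, which the counts do not separate. Of the other cells of fetal liver, 0 of 19 hepatocyte, 0 of 12 endothelial and 0 of 9 stromal genes passed by limma, and 1, 1 and 2 had an unadjusted p below 0.05. Their summed levels were 141 to 208, 358 to 531 and 62.6 to 109 CPM in *Kat6bE/E*, and 120 to 379, 359 to 507 and 43.4 to 70 CPM in *Kat6aE/E;Kat6bE/E*. All 13 tested mitochondrially encoded genes had a positive fitted change (median 0.44), with 0 calls by limma and 5 at an unadjusted p below 0.05. Of 4 tested X-linked genes used as sex markers 0 passed, with 0 at such a p. Without litter 970 the litter 1045 libraries alone stand for the genotype, and of all 13179 genes tested 2164 were called lower and 928 higher. In that fit 29 of the 57 histone genes were lower (median -1.78). Of the 12 *Hox* genes 6 were lower and 1 higher (median -1.25). Of 16 class II and dendritic cell genes 7 were lower (median -0.90), and all 13 mitochondrially encoded genes were higher (median 0.86).

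**Figure D4:**
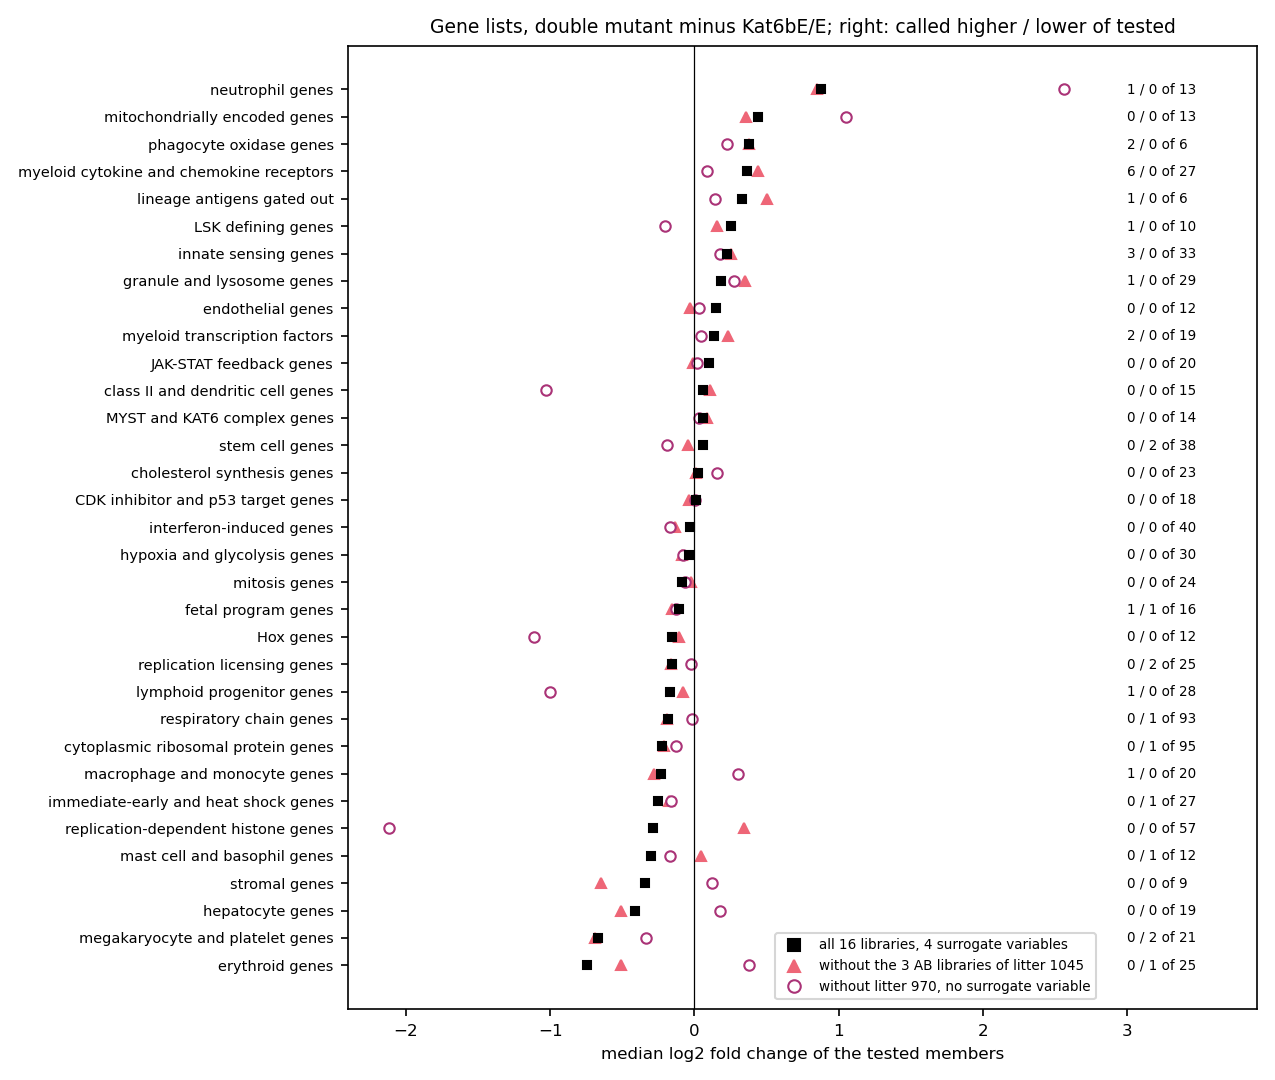
Median log2 fold change, *Kat6aE/E;Kat6bE/E* (AB) minus *Kat6bE/E*, of the tested members of 33 gene lists; squares, all 16 libraries with 4 surrogate variables; triangles, without the 3 AB libraries of litter 1045; open circles, without litter 970 and without surrogate variables; right, members called higher and lower of those tested. The phagocyte oxidase list is at 0.38, 0.38 and 0.23, the erythroid list at -0.75, -0.51 and 0.38.

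The same *Kat6a* allele was compared on the other *Kat6b* background, in 4 *Kat6aE/E* and 4 WT libraries that share no library with the comparison above, though both come from one fit. WT replicates 1 to 3 and *Kat6aE/E* replicate 1 came from litter 753, the only litter with both genotypes. *Kat6aE/E* replicate 2 had 13650 genes detected at equal depth, against 16006 to 16324 in the others, and 722 tested genes at 0 counts. The model fitted it almost exactly (leverage 0.980, against 0.226 to 0.375 in the others). In *Kat6aE/E* against WT, 178 genes (1.36%) were called, 96 higher (0.734%) and 82 lower (0.627%). Of the 193 genes called on the *Kat6bE/E* background, 191 had the same direction in *Kat6aE/E* against WT, where 68.2% of all genes did. The exceptions were *Rhbdl3*, a rhomboid-like protease, and *Pcmtd2*, both chosen by this after their values were seen. In all, 60 genes were called in both, which is 31.1% of the 193 and 33.7% of the 178, all in the same direction. Of the 178, 177 had the same direction on the *Kat6bE/E* background. The direction on the *Kat6bE/E* background was also taken from other fits, with these genes and their direction in *Kat6aE/E* against WT kept. It was the same for 163 of 171 (95.3%) in a fit of only the 8 libraries compared, without surrogate variables. Without litter 970 and surrogate variables it was the same for 148 of 178 (83.1%). Among all genes 56.4% and 51.6% had the same direction. For those shares both directions came from the changed fits, so they are not the same measure. *Csf2rb* was at 87.1 to 96.8 CPM in WT and 102 to 141 CPM in *Kat6aE/E* (log2 fold change 0.45, FDR=0.00400). *Cybb* was at 21 to 31.7 and 32.5 to 43.4 CPM (0.54, FDR=0.0216), and *Cpa3* at 32.0 to 43.1 and 16.1 to 23.8 CPM (-1.04, FDR=0.000582). In these 3 genes the *Kat6aE/E* libraries did not overlap WT. *Rag1* was called lower there (-1.46, FDR=0.0216). The genes *Nolc1*, *Srm* and *Abcf1* were not called in *Kat6aE/E* (-0.12, -0.15 and -0.05, FDR=0.303 to 0.777).

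Whether the *Kat6a* G656E change differed between the *Kat6b* backgrounds was tested as an interaction. By limma 0 of 13071 genes had FDR<0.05 (lowest value 0.891), and 652 (4.99%) had an unadjusted p below 0.05. With 4 surrogate variables edgeR and DESeq2 also called 0 genes, and 1152 and 1053 had such a p. On the log2 scale the interaction was 0.12 (SE 0.10) for *Csf2rb*, 0.30 (SE 0.18) for *Cybb* and 0.04 (SE 0.20) for *Cpa3*. It was -0.33 for *Nolc1* and *Abcf1* and -0.28 for *Srm* (unadjusted p=0.00332, 0.00114 and 0.0115 by limma), which did not pass the correction. Without *Kat6aE/E;Kat6bE/E* replicate 1, 1436 genes were called, 1122 of them lower, from libraries of litter 1045 alone on that side.

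**Figure D5:**
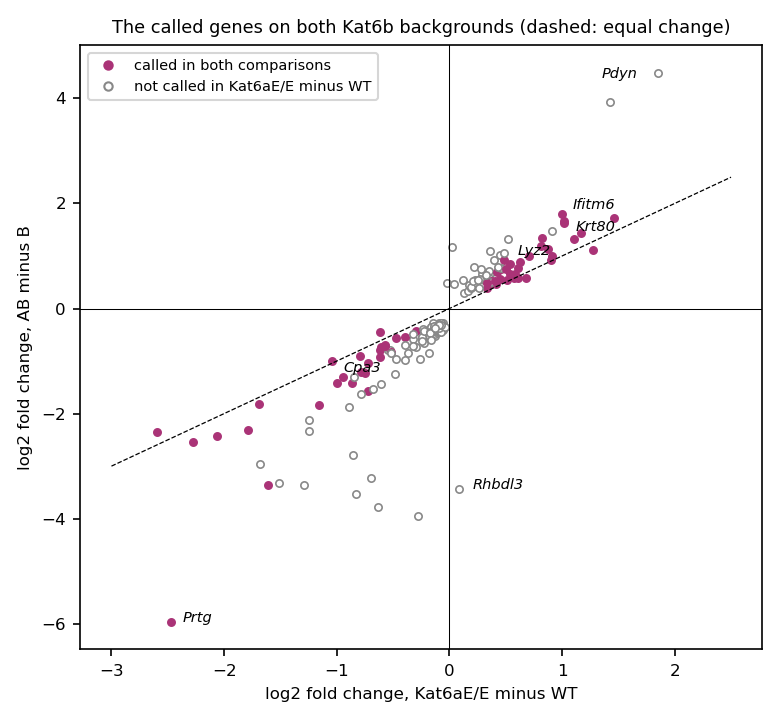
Log2 fold change of the 193 called genes on the *Kat6bE/E* background (vertical, *Kat6aE/E;Kat6bE/E* (AB) minus *Kat6bE/E* (B)) against that on the *Kat6b* WT background (horizontal, *Kat6aE/E* minus WT), both from one fit; filled, called in both; dashed line, equal change. Of the genes, 191 lie in the quadrants of equal sign.

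The libraries were also compared pairwise by a leading distance, the quadratic mean of the log2 differences of the 500 genes that differed most. The mean distance was 1.80 within *Kat6bE/E*, 4.73 within *Kat6aE/E;Kat6bE/E* and 3.73 between them. *Kat6aE/E;Kat6bE/E* replicate 1 was at 1.97 from *Kat6bE/E* and at 4.37 from the other *Kat6aE/E;Kat6bE/E* libraries, and the 3 of litter 1045 were at 5.09 from each other. Replicate 1 was hence closer to *Kat6bE/E* than to its own genotype. The excess of the distance between over that within genotypes was 0.47 (exact permutation test, one-sided p=0.0571, 35 splits), and was not resolved from the spread of the libraries.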

How the data were processed

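The authors aligned read pairs to mm39 with Rsubread and deposited counts per RefSeq gene from featureCounts; versions are not given in the sources used here. Counts of the 16 LSK libraries were fitted following the study's methods: protein-coding genes, those on the Y chromosome excluded (20951 of 26411, with gene types from a GRCm38.p6 table that lacked 52), filterByExpr, TMM, 4 surrogate variables (wsva), voomLmFit with litter as random block (correlation 0.331) and robust empirical Bayes moderation, for 13071 genes in R 4.3.3, limma 3.58.1, edgeR 4.0.16. FDR is the Benjamini-Hochberg adjusted p. Differences within litters used log2(CPM + 0.5). Members and lists were chosen with earlier results of these data known. Named were *Kat6a*, *Kat6b*, the 15 called genes of smallest p in each direction, up to 6 called members of each list or, with none, up to 2 of smallest p; others are stated as chosen after their values were seen, which also holds for *Csf1r*, *Ncf4*, *Gata2*, *Kit*, *Ly6a*, *Xist*, *Sema4a* and the genes with PU.1 windows. Each library is a fetus. The p-values of the fit with surrogate variables measure mainly the spread that remained in the libraries not fitted almost exactly. They measure little of the spread between the *Kat6aE/E;Kat6bE/E* fetuses and their litters. Alternatives were other numbers of surrogate variables, blocks, tools, filters and covariates, and omission of libraries; DESeq2 1.42.0 was one. On simulated counts of 12951 genes, the model called 49.5% of genes changed by a log2 of 0.5 and 76.8% of those changed by 1, with 6 false calls. The simulated counts were independent between libraries, with no litter effect, no hidden pattern and no library of few detected genes. They are a check of the code, and these rates cannot be taken to hold for the real libraries. The labels describe 30 ng of sorted RNA and the paper another amount; the difference was not resolved. No libraries were duplicates (smallest chi-square per degree of freedom 6.36). The reads were not used, so the mutations were not checked and overlapping or antisense genes not resolved. Whole E9.5 embryo libraries were not used here. 1 gene of the lymphoid list is not reported here.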

Additional observations from a re-analysis of the deposited data

Results flagged for a closer look

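In groups of 4 libraries, 1 library was set apart from the others beyond Dixon's critical value for the gap as a share of the range of log2(CPM + 0.5) in 9 of 110 groups examined, where chance gives about 1 in 20. All 9 were *Kat6aE/E;Kat6bE/E* libraries. Replicate 1, of litter 970, was apart for *Ifitm6* (3.83 CPM), *Glrx5* (121 CPM), *Il12rb1* (10.3 CPM), *Notch1* (286 CPM), *Tal1* (150 CPM) and *Atp5if1* (168 CPM). Of these it was the highest for *Il12rb1* and *Notch1* and the lowest for the rest. Replicate 2 was apart and highest for *Id2* (50.7 CPM) and *Itgam* (114 CPM), and replicate 3 lowest for *Igf2bp1* (106 CPM).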

How the results depend on the processing

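Surrogate variables and single libraries decided the number of calls, and the cause was not tested. For *Kat6aE/E;Kat6bE/E* against *Kat6bE/E*, the 193 calls became 0 without surrogate variables, with litter as a fixed term, with only the 8 libraries compared or with sample weights (933, 566, 730 and 1255 genes at an unadjusted p below 0.05 by limma). They became 366 with 2 surrogate variables, 598 without the litter block, 12 (9 higher) and 1333 (405 higher) with edgeR without and with 4 surrogate variables, and 1865 (679 higher) with DESeq2 and 4. The count was 41 (26 higher) without a filter on low counts, 80 with all gene types, 63 (38 higher) with genes detected as a covariate, 296 with *Xist* as a covariate and 399 at equal depth. Omitting the 3 libraries of litter 1045 gave 617 and omitting litter 970 gave 3092. Settings chosen after seeing the data gave 0 (genes detected as a covariate without surrogate variables, 2163 at an unadjusted p below 0.05), 957 and 0 (without the 4 libraries of few genes, which are litter 1045 and *Kat6aE/E* replicate 2, with and without surrogate variables, the latter with 2013 at such a p) and 6 (without litter 970 and surrogate variables). Leaving out 1 library gave 0 (*Kat6bE/E* replicate 1, 2738 at an unadjusted p below 0.05) to 2929 (*Kat6aE/E;Kat6bE/E* replicate 1). The count was 4, 66 and 81 without *Kat6bE/E* replicates 2 to 4, 120, 92 and 122 without *Kat6aE/E;Kat6bE/E* replicates 2 to 4, 94, 28, 85 and 579 without WT replicates 1 to 4, and 76, 40 and 59 without *Kat6aE/E* replicates 1, 3 and 4. It stayed within 1.5 times with DESeq2 size factors (186, 178 of them shared). The count was also near with 6 surrogate variables (212, 109 higher), without *Kat6aE/E* replicate 2 (163, 87 higher) and with DESeq2 without surrogate variables (253, 168 higher), but only 128, 110 and 45 of the 193 were shared, and 72 of the 193 were higher.

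The replicate numbers did not pair the samples. Same-numbered deviations correlated at 0.353 for replicate 1, which shares litter 970, and at 0.0981, 0.0631 and -0.0216 for the others. With the replicate block 8 genes were called, all among the 193, and 28 for *Kat6aE/E* against WT, while 2 of 4 *Kat6aE/E;Kat6bE/E* libraries correlated best with their own number.

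For *Kat6aE/E* against WT, the 178 calls became 3 without surrogate variables, 50 with 2, 33 without the litter block, 0 with litter as a fixed term, 16 with only the libraries compared, 0 and 82 with edgeR without and with 4 surrogate variables, 6 with DESeq2 without them, 5 with sample weights, 82 at equal depth and 453 without the litter 1045 libraries. The settings chosen later gave 6 (genes detected as a covariate), 303 and 111 (without the 4 libraries of few genes, with and without surrogate variables) and 5 (without litter 970 and surrogate variables). Leaving out 1 library gave 1 (*Kat6aE/E* replicate 1) to 364 (*Kat6aE/E;Kat6bE/E* replicate 2). The interaction gave 0 to 1436 calls when 1 library was left out and 1474 without litter 970. The share of these genes with one direction on both backgrounds, 99.4%, was 100% without the litter block, with edgeR and 4 surrogate variables and without a filter, 95.3% with only the libraries compared, 94.4% with edgeR or DESeq2 without surrogate variables, 89.9% without litter 970, 83.1% without it and without surrogate variables, and 91.6% to 100% when 1 library was left out. Throughout, the genes and their direction in *Kat6aE/E* against WT were kept from the main fit.

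The excess distance between genotypes was 0.901 with the surrogate variables removed and -0.0402 to 1.42 when 1 library was left out, below 0 without *Kat6bE/E* replicates 2 (-0.0259), 3 (-0.011) or 4 (-0.0402). It was past the threshold of the exact permutation test without *Kat6aE/E;Kat6bE/E* replicate 2 (0.728) or replicate 1, where the 3 that remain are littermates, and the difference in genes detected was -1641 to -2895 over the omissions. Of the named genes, *Csf2rb*, *Cybb*, *Id2*, *Cpa3*, *Peg12* and *Krt80* remained called in 31 of 40 alternatives with one direction in all. Without litter 970 and surrogate variables the sign turned for *Kat6b* (-0.011), *Glrx5* (0.223), *Minpp1* (0.115), *Ryk* (0.057), *Notch1* (-0.342), *Tal1* (0.0864), *Rrm2* (0.0131), *Hspe1* (0.00401), *Arid3a* (-0.0172) and *Ptprc* (-0.0945). *Glrx5* turned with edgeR (0.041) and DESeq2 (0.0474) without surrogate variables and without replicate 1 (0.0142, from -0.627 over the omissions of 1 library), *Notch1* without replicate 1 (-0.114, up to 0.574) and without litter 970 (-0.119), and *Gsdmd* without litter 970 (-0.0246). With 4 libraries per genotype in 2 to 3 litters, and 820 to 1363 tested genes at 0 in litter 1045, low-expressed genes were not resolved, and a gene that was not called is not shown to be equal.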
